A study of Mus musculus with 12 samples.

Results

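The genes of glycolysis and of the fate of pyruvate and lactate were described across 12 bulk mammary tumours. The set held 34 members of the 39017 genes in the deposited count table, each taken by an exact match to its gene symbol. It covered glucose entry, every step from glucose to pyruvate, lactate dehydrogenase, the pyruvate dehydrogenase complex with its kinases, and lactate transport. Each tumour came from 250000 NIC cells injected with Matrigel into a mammary fat pad of a female mouse of the FVB/N strain, 8 to 12 weeks old. NIC is a mouse breast cancer line that is positive for ErbB2 and has no p66ShcA of its own, the longest protein made from the Shc1 adaptor gene. There were 3 tumours in each of 4 groups: p66High aggressive, p66Low aggressive, p66High parental and p66Low parental. The p66ShcA transgene was expressed constitutively, and neither its promoter nor the number of clones behind each line is stated in the labels. An aggressive line is a parental line that went through 2 rounds of growth in the fat pad and was then returned to culture, and the submitters describe it as faster growing and more metastatic. All groups share the ErbB2-positive line and the mouse strain. What the p66Low cells carried in place of the transgene is not in the labels.

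Glycolysis splits glucose into pyruvate in the cytosol and yields a small amount of ATP without oxygen. Hexokinase traps glucose in the cell, phosphofructokinase is the main point of control, and pyruvate kinase ends the route. Pyruvate is then reduced to lactate by lactate dehydrogenase, or enters the mitochondrion and is turned into acetyl-CoA by pyruvate dehydrogenase, which its kinases switch off. Many tumours make lactate even where oxygen is present. Hypoxia-inducible factors and Myc are known to drive transcription of many genes of this route, through DNA motifs that both read in part.

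The core letters of such motifs were looked up in the 250 bases before each RefSeq gene start (GRCm38.p6, C57BL/6J reference sequence, whereas the tumours are FVB/N). The letters were ACGTG and GCGTG, the core of the hypoxia response element, on either strand, and CACGTG, the E-box read by Myc, which itself holds ACGTG. RefSeq starts were found for 33 of 34 members, with 50 windows in all. ACGTG or GCGTG stood in 36 of these windows (72.0%), against 38.6% of all 32851 promoter windows. ACGTG alone stood in 40.0% of the members' windows and 16.6% of all, and CACGTG in 12.0% of the members' windows and 6.02% of all. At least 1 window of 28 of the 33 members held ACGTG or GCGTG. Windows of 1 gene can overlap and share a match, as for Aldoa and Pfkm, and the base composition of the windows was not taken into account. A match of letters is a description and not a bound site. The windows shown are those of members on which the results turn, with every match in capitals: the glucose transporter gene Slc2a1 (chr4:119108495-119108744, plus strand), Pgk1 (chrX:106186850-106187099, plus strand), Ldha (chr7:46845554-46845803, plus strand, the one of its RefSeq starts with CACGTG), Ldhb (chr6:142507958-142508207, minus strand) and Pdk3 (chrX:93832151-93832400, minus strand), each 5′ to 3′ in the direction of its gene.
Slc2a1: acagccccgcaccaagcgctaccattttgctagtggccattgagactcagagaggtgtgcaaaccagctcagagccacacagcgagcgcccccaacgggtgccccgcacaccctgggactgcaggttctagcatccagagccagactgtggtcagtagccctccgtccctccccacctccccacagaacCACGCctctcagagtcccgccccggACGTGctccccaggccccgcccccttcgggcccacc
Pgk1: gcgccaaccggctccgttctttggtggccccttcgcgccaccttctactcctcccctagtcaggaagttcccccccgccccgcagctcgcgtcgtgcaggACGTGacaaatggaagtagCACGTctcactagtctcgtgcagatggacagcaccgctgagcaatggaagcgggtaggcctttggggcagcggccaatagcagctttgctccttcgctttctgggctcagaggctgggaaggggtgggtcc
Ldha: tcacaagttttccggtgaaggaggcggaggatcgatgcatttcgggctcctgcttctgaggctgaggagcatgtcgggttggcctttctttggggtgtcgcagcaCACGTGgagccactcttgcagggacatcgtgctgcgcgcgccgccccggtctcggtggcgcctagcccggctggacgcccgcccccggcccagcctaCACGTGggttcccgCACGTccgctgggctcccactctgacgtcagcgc
Ldhb: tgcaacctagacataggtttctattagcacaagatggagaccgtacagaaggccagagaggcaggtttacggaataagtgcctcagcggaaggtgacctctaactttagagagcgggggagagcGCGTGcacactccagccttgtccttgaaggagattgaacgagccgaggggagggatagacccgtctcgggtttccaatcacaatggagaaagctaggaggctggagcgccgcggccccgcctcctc
Pdk3: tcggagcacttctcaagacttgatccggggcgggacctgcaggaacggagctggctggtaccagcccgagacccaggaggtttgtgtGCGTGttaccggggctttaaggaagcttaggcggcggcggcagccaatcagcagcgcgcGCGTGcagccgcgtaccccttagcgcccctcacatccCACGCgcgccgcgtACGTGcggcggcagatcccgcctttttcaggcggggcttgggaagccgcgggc
The Ldha window carried 3 runs of capitals, 2 of them CACGTG. The Ldhb window held 1 match, Slc2a1 and Pgk1 held 2 each, and Pdk3 held 4.

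Total counts lay between 17.4 and 76.1 M (mega-counts) per tumour, so that 3 counts, used as the floor of detection, were worth 0.0394 to 0.156 CPM (a gene's counts per 1 M, on TMM-scaled libraries). The 34 members took 0.581% to 1.17% of the counts of a tumour. Shc1, the check of the labels, was at 237, 246 and 774 CPM in p66High aggressive, 61.0, 65.3 and 69.9 CPM in p66Low aggressive, 271, 234 and 223 CPM in p66High parental, and 65.0, 59.0 and 69.4 CPM in p66Low parental tumours. Every p66High tumour lay above every p66Low tumour. The summed level of 6 epithelial and tumour markers was 1966 to 3070 CPM in the 12 tumours. The 9 markers of lymph node stroma and B cells summed to 160 and 224 CPM in p66Low aggressive replicates 1 and 2 and 49.4 CPM in p66High parental replicate 3, and to at most 2.03 CPM in the other 9 tumours. Counts of called members are also given without these 3 libraries. Whether each tumour of a group had its own mouse is not in the labels. In both p66High groups the titles of replicates 1 and 2 share a number and differ by L and R, so that these may be tumours of 1 mouse, whereas the 6 p66Low tumours carry 6 different numbers. Throughout, n counts tumours, and the p-values here reflect only the variation among these samples.

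A member was called where its adjusted p from edgeR's quasi-likelihood test was under 0.05, adjusted over 19370 genes. Of the 34 members, 33 were tested, and 24 of them were called in at least 1 of 5 comparisons. Pgam2, the muscle phosphoglycerate mutase, had 12 counts over all tumours and was not tested. The 10 markers of skeletal muscle summed to 3.83 to 9.50 CPM in the 12 tumours, and their sums did not overlap between the groups in any of the 4 pairwise comparisons. Mb alone lay between 2.76 and 8.53 CPM, and none of the other markers passed 0.649 CPM in any tumour. The sums therefore rest largely on 1 gene and do not measure muscle content. In bulk tumours, fewer cells of a type and less RNA per cell cannot be told apart.

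In unselected tumours, 8 glycolysis genes between hexokinase and lactate dehydrogenase were lower with p66High than with p66Low, and 1 was higher. Ldha, which makes lactate from pyruvate, averaged 692 ± 36.1 CPM in p66High parental and 1775 ± 326 CPM in p66Low parental tumours (SD, n = 3 each), and Pgk1 averaged 42.3 ± 5.39 CPM and 113 ± 21.4 CPM in the same groups. The 8 members called lower were Hk1, Pfkl, Pfkp, Tpi1, Gapdh, Pgk1, Pkm and Ldha, and Pfkfb2 was the 1 called higher. Of all genes tested, 8.08% were called, 4.10% lower and 3.98% higher. The median log2 difference was -0.75 over the 33 members and -0.01 over all genes tested. The 3 p66High parental tumours lay wholly below the 3 p66Low parental tumours for 22 members, where 14.2% of all genes did, and wholly above for 3 members, where 15.6% of all genes did. Pgam1 (log2 difference -0.94 (SE 0.26, adjusted p = 0.0503)), Hk2 (-1.31 (SE 0.37, adjusted p = 0.0539)), Slc2a1 (-1.28 (SE 0.38, adjusted p = 0.0665)) and Aldoa (-0.86 (SE 0.26, adjusted p = 0.0666)) did not pass. The 16 hypoxia markers outside glycolysis summed to 747, 669 and 721 CPM in p66High parental and 1960, 1322 and 2066 CPM in p66Low parental tumours, without overlap, with Car9 (-2.86, adjusted p = 0.00277) and Ak4 (-1.34, adjusted p = 0.0474) called lower, and the 8 adipocyte markers to 125 to 329 CPM in p66High parental and 18.4 to 156 CPM in p66Low parental tumours. Also without overlap, the epithelial and tumour markers summed to 1966 to 2362 CPM in p66High parental and 2466 to 2902 CPM in p66Low parental tumours. The 7 macrophage markers summed to 323 to 425 CPM in p66High parental and 279.7 to 311 CPM in p66Low parental tumours, and the 8 neutrophil and monocyte markers to 243 to 329.7 CPM in p66High parental and 163 to 223 CPM in p66Low parental tumours. Here and below, the neutrophil and monocyte sum is mainly Lyz2, which lay between 86.1 and 563 CPM in the 12 tumours. Itgam reached at most 37.3 CPM, and Ly6g and Retnlg were at 0 in 11 and 7 tumours, so that the sum does not measure neutrophils. The part of all these marker sums in the members' difference was not tested. Leaving out p66Low parental replicate 1, p66Low parental replicate 3 or p66High parental replicate 1 left 5 members called, and leaving out p66High parental replicate 3 left 4. In the 6 fits without 1 tumour, 4.36% to 9.65% of all genes tested were called. Without the 3 libraries with lymph node genes 5 were called, namely Hk1, Pfkl, Pfkp, Pfkfb2 and Ldha. Hk1, Pfkl, Pfkfb2 and Ldha were called in each of the 6 fits without 1 tumour; Pfkp was not without p66High parental replicate 3 (adjusted p = 0.0522), and Tpi1, Gapdh, Pgk1 and Pkm were not without p66Low parental replicates 1 or 3 or p66High parental replicates 1 or 3 (adjusted p up to 0.108, 0.121, 0.0659 and 0.159 in that order), nor Gapdh and Pkm without p66High parental replicate 2.

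Selection of p66High cells went with a higher level of 14 members, from glucose entry to lactate export. Called higher in p66High aggressive than in p66High parental tumours were Slc2a1, Hk2, Gpi1, Pfkl, Pfkp, Aldoc, Tpi1, Gapdh, Pgk1, Pgam1, Eno2, Ldha, Pdk3 and Slc16a3. Hk1 (0.42 (SE 0.17, adjusted p = 0.157)), Pfkm (0.53 (SE 0.15, adjusted p = 0.0579)), Aldoa and Pkm did not pass, and 7 of the 33 members had a negative sign. Of all genes tested, 3.11% were called higher and 2.82% lower, 5.94% in all. The lactate exporter gene Slc16a3 averaged 9.32 ± 6.71 CPM and 2.03 ± 0.501 CPM in p66High aggressive and p66High parental tumours, and Gapdh averaged 72.9 ± 36.6 CPM and 16.5 ± 1.07 CPM. The median log2 difference was 0.76 over the members and -0.0021 over all genes tested. Groups did not overlap for 19 members higher and 2 lower, where 16.5% and 16.0% of all genes did so. This comparison and the one between parental tumours share the same 3 p66High parental tumours and the mean of these tumours was the lowest of the 4 groups for each of the 14 members. The 16 hypoxia markers summed to 1042, 1937 and 4748 CPM in p66High aggressive tumours, against 747, 669 and 721 CPM in p66High parental tumours, and 10 of the 16 were called higher, among them Car9 (2.98, adjusted p = 0.00324), Ak4 (1.76, adjusted p = 0.0188), Egln1 (1.76, adjusted p = 0.019) and Vegfa (2.66, adjusted p = 0.0262); their part was not tested. The adipocyte markers summed to 8.84 to 113 CPM in p66High aggressive and 125 to 329 CPM in p66High parental tumours, and the neutrophil and monocyte markers to 98.7 to 241 CPM in p66High aggressive and 243 to 329.7 CPM in p66High parental tumours. Their part was not tested either. In the 6 fits without 1 tumour, 2.29% to 3.78% of all genes tested were called. The number of members called was 3, 5 and 2 without p66High parental replicates 1, 2 and 3 in turn, and 17, 6 and 6 without p66High aggressive replicates 1, 2 and 3. Summing tumours with a shared title number left 3, and 4 were called without the 3 libraries with lymph node genes, namely Pfkp, Aldoc, Gapdh and Pdk3. Gapdh and Pdk3 were called in each of the 6 fits without 1 tumour, and the other 12 members reached adjusted p-values of 0.0530 to 0.163 in at least 1 of them.

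**Figure D1:**
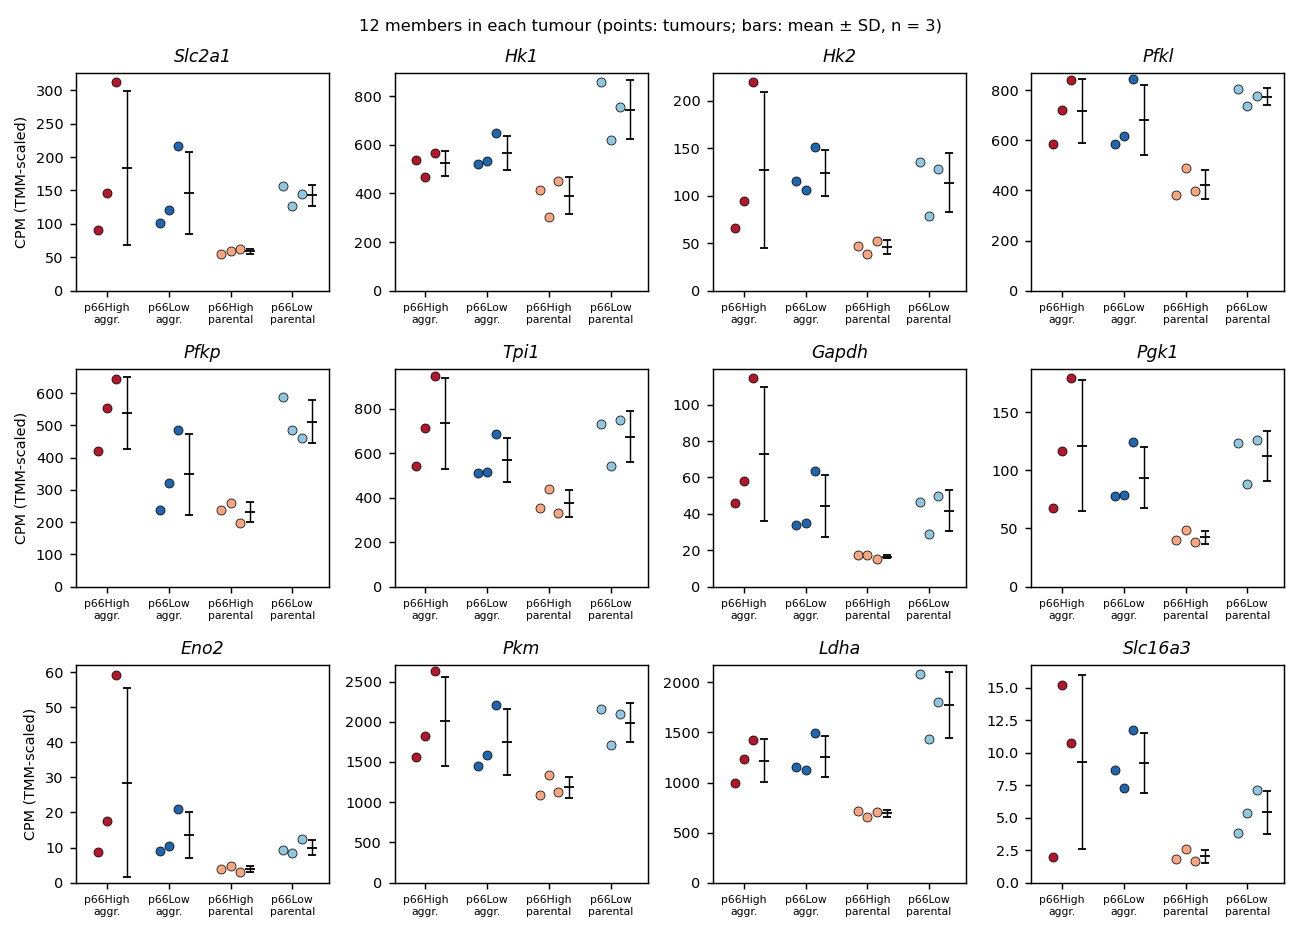
Level of 12 members in each tumour, as CPM on TMM-scaled libraries (vertical axis, from 0), with 1 point per tumour in the 4 groups and the mean ± SD (n = 3) beside them. The p66High parental points lie below the p66Low parental points in every panel, and p66High aggressive replicate 3 is the highest point of all 12 for Slc2a1, Hk2, Pfkp, Tpi1, Gapdh, Pgk1, Eno2 and Pkm.

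Selection of p66Low cells was tested in the same way. In p66Low aggressive against p66Low parental tumours, the glucose transporter gene Slc2a3, the hexokinase gene Hk3, Pfkfb4 and Pdk3 were called higher, and Ldhb and Dlat lower. That is 6 of 33 members, where 16.6% of all genes tested were called, 9.60% higher and 7.03% lower. The median log2 difference was -0.05 over the members and -0.02 over all genes tested. With scaling by library size alone it was 0.05 over the members, with 4 called higher and 1 lower. The members' median was -0.29 without p66Low aggressive replicate 3, up to 0.08 in the other 5 fits without 1 tumour and 0.25 without the 3 libraries with lymph node genes. Groups did not overlap for 8 members higher and 3 lower, where 16.2% and 16.6% of all genes did so. The 8 neutrophil and monocyte markers summed to 512, 623 and 247 CPM in p66Low aggressive and 223, 163 and 213 CPM in p66Low parental tumours. The 7 macrophage markers summed to 517, 619 and 420 CPM in p66Low aggressive and 311, 280 and 281 CPM in p66Low parental tumours. The lymph node and B cell markers summed to 1.64 to 224 CPM in p66Low aggressive and 0.260 to 1.13 CPM in p66Low parental tumours. The part of these markers in the differences was not tested. Without the 3 libraries with lymph node genes, 3 members were called, namely Hk3, Ldhb and Pdk3. Hk3, Pfkfb4, Ldhb and Pdk3 were called in each of the 6 fits without 1 tumour.

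Between the selected lines, p66High aggressive against p66Low aggressive tumours, 3 members were called higher (Aldoc, Ldhb and Dlat) and 3 lower (Hk3, Pfkfb1 and Pfkfb4), where 21.0% of all genes tested were called, 8.92% higher and 12.1% lower. The median log2 difference was 0.07 over the members and 0.02 over all genes tested, and with scaling by library size alone the members' median was -0.0026. It was -0.08 without p66High aggressive replicate 3, 0.32 without p66High aggressive replicate 1 and -0.12 without the 3 libraries with lymph node genes. Of the 8 members lower in p66High parental tumours, Ldha differed here by -0.05 (SE 0.17, adjusted p = 0.877) and Hk1 by -0.12 (SE 0.17, adjusted p = 0.671). Groups did not overlap for 4 members higher and 3 lower, where 19.4% and 18.7% of all genes did so. The macrophage markers summed to 175 to 341 CPM in p66High aggressive and 419.9 to 619 CPM in p66Low aggressive tumours, and the neutrophil and monocyte markers to 98.7 to 241 CPM in p66High aggressive and 247 to 623 CPM in p66Low aggressive tumours. The 6 red cell markers summed to 116 to 169.97 CPM in p66High aggressive and 69.5 to 115 CPM in p66Low aggressive tumours. None of these 3 sums overlapped between the groups, and their part in the members' differences was not tested. Without p66Low aggressive replicate 2, 3 members were called, and without the 3 libraries with lymph node genes 2 were, namely Pfkfb4 and Ldhb. Hk3, Pfkfb4 and Ldhb were called in each of the 6 fits without 1 tumour. Dlat was called in none of them and Pfkfb1 in 1, with adjusted p-values up to 0.173 and 0.134.

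**Figure D2:**
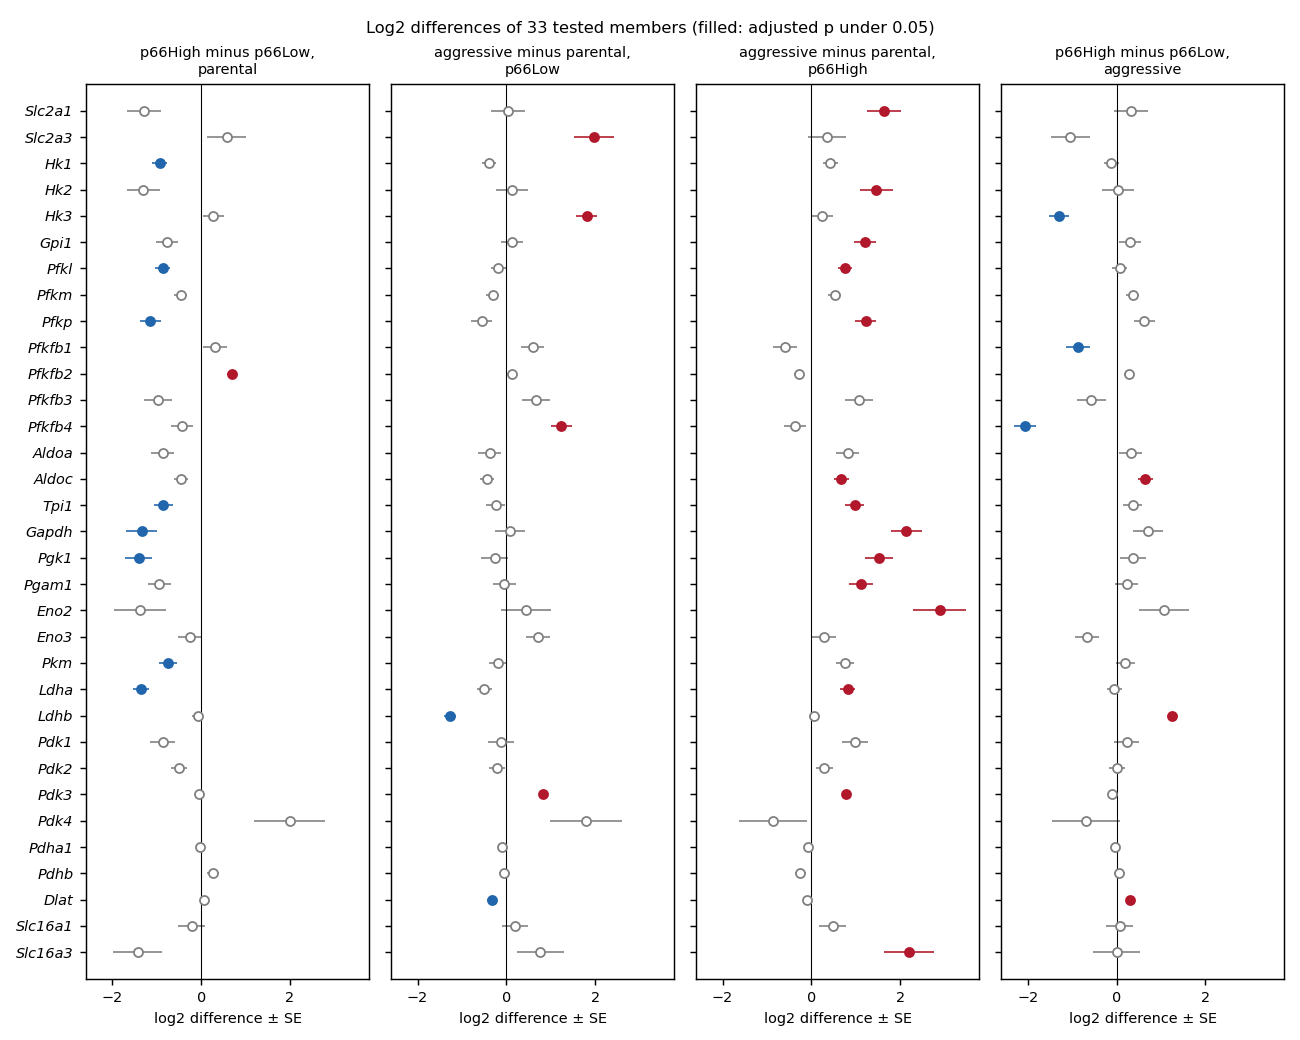
Log2 difference ± SE (horizontal axis) of the 33 tested members, ordered from glucose entry at the top to lactate transport at the bottom, in the 4 comparisons. Filled points have an adjusted p under 0.05, red higher and blue lower. The left panel has 8 blue points and 1 red, and the third panel, selection in p66High, has 14 red points and no blue.

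Whether selection acted differently in the 2 lines was tested as an interaction, the p66High selection difference minus the p66Low selection difference. The interaction also equals the line difference between aggressive tumours minus that between parental tumours, so it is not separate from these comparisons. It was called for 12 of 33 members, 10 of them positive and 2 negative, where 12.4% of all genes tested were called, 4.37% positive and 7.99% negative. The positive ones were Hk1, Pfkl, Pfkm, Pfkp, Aldoc, Tpi1, Gapdh, Pgk1, Ldha and Ldhb, and the negative ones Hk3 and Pfkfb4. The median was 0.94 over the members and 0.05 over all genes tested. For the phosphofructokinase gene Pfkp the interaction was 1.77 (SE 0.33, adjusted p = 0.00976), with selection differences of 1.22 (SE 0.24, adjusted p = 0.013) in p66High and -0.55 (SE 0.24, adjusted p = 0.135) in p66Low. For Ldha it was 1.31 (SE 0.24, adjusted p = 0.00906). Hk3, Pfkp, Pfkfb4, Aldoc, Ldha and Ldhb were called in each of the 12 fits without 1 tumour. In these 12 fits, 5.9% to 16.4% of all genes tested were called. The number of members called was 7 and 6 without p66Low parental replicates 1 and 3, 7 without p66High parental replicate 3, 6 and 20 without p66Low aggressive replicates 2 and 3, and 20 without p66High aggressive replicate 1. Without the 3 libraries with lymph node genes it was 1, Ldhb.

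**Figure D3:**
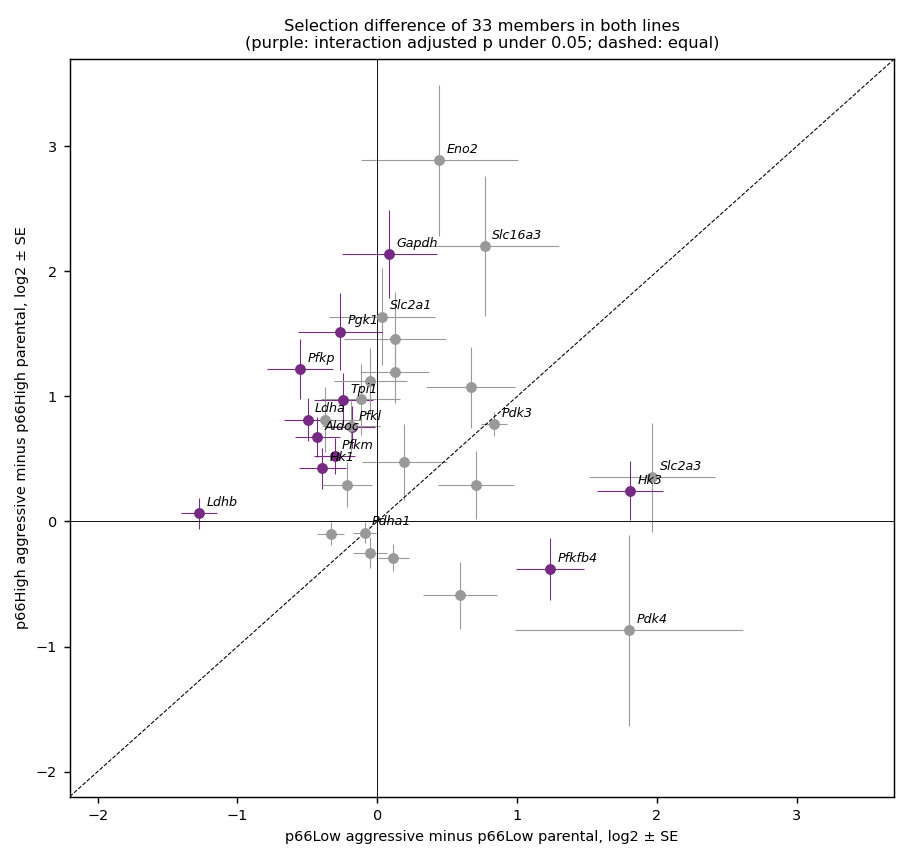
Selection difference of the 33 members in p66High (vertical axis, log2 ± SE) against that in p66Low (horizontal axis, log2 ± SE), with a dashed line where both are equal and purple points where the interaction has an adjusted p under 0.05. The 10 positive purple points lie above the dashed line and 2, Hk3 and Pfkfb4, below it.

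Glucose entry rested on Slc2a1, the widely expressed glucose transporter GLUT1 (ENSMUSG00000028645, chromosome 4, 119108711 to 119137983, mm10, as are all gene coordinates here, protein-coding). Per kilobase (kb) of exon, its level averaged 37.9 CPM over the 12 tumours, against 0.498 CPM for Slc2a3, the high-affinity GLUT3 known from neurons and leukocytes. Slc2a1 stood at 90.3, 146 and 312 CPM in p66High aggressive tumours, 101, 121 and 217 CPM in p66Low aggressive tumours, 54.2, 59.7 and 62.3 CPM in p66High parental ones and 157, 126 and 145 CPM in p66Low parental ones. The p66High parental tumours were the lowest of the 12. The log2 difference was 1.64 (SE 0.39, adjusted p = 0.0313) in p66High selection and 0.04 (SE 0.38, adjusted p = 0.965) in p66Low selection. Without p66High aggressive replicate 3 the p66High value was 1.00 (adjusted p = 0.088). Slc2a3 (ENSMUSG00000003153, chromosome 6, 122727809 to 122801640) stood at 2.82, 4.16 and 2.93 CPM in p66High aggressive tumours, 7.66, 10.1 and 2.71 CPM in p66Low aggressive tumours, 2.39, 1.51 and 3.77 CPM in p66High parental ones and 1.92, 1.70 and 1.59 CPM in p66Low parental ones. Its p66Low selection difference was 1.97 (SE 0.45, adjusted p = 0.0134), highest in the libraries with lymph node genes, p66Low aggressive replicates 1 and 2. It was 0.64 (adjusted p = 0.402) without the 3 such libraries, and the call ended on leaving out p66Low aggressive replicate 2 or p66Low parental replicate 3 (adjusted p up to 0.0614).

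Hexokinase, which phosphorylates glucose, was mostly Hk1. Hk1 (ENSMUSG00000037012, chromosome 10, 62268855 to 62379908), the form of most tissues, stood at 537, 467 and 567 CPM in p66High aggressive tumours, 523, 532 and 648 CPM in p66Low aggressive tumours, 415, 304 and 451 CPM in p66High parental ones and 861, 618 and 757 CPM in p66Low parental ones. The p66High parental tumours lay wholly below the p66Low parental ones, and the log2 difference was -0.93 (SE 0.17, adjusted p = 0.00582). Hk2, the form that low oxygen and insulin are known to induce, stood at 66.4, 94.7 and 219.9 CPM in p66High aggressive tumours, 116, 106 and 151 CPM in p66Low aggressive tumours, 47.0, 38.4 and 52.5 CPM in p66High parental ones and 135, 78.3 and 128 CPM in p66Low parental ones. Its p66High selection difference was 1.46 (SE 0.37, adjusted p = 0.0412), and 0.80 (adjusted p = 0.122) without p66High aggressive replicate 3, the highest tumour. Hk3, known from myeloid cells, stood at 4.49, 6.40 and 3.49 CPM in p66High aggressive tumours, 14.4, 10.02 and 11.0 CPM in p66Low aggressive tumours, 3.97, 4.71 and 3.49 CPM in p66High parental ones and 3.32, 3.69 and 3.09 CPM in p66Low parental ones. The 3 p66Low aggressive tumours were the highest of the 12. Hk3 rose in p66Low selection by 1.81 (SE 0.24, adjusted p = 0.000995) and was lower in p66High aggressive than in p66Low aggressive tumours by -1.30 (SE 0.24, adjusted p = 0.00318), a call that ended without the 3 libraries with lymph node genes, at -1.19. The neutrophil and monocyte sum and the macrophage sum also had their highest group medians in p66Low aggressive tumours, 512 and 517 CPM. Within that group both sums were highest in replicate 2, and Hk3 in replicate 1. The part of these markers in the Hk3 differences was not tested. Per length, Hk2 made up 24.0% ± 10.4 of the 3 hexokinases in p66High aggressive, 22.9% ± 1.5 in p66Low aggressive, 14.2% ± 0.6 in p66High parental and 17.5% ± 2.1 in p66Low parental tumours (SD, n = 3 each). These shares depend on the length used, and with the longest transcript in place of the union of exons they were 15.02%, 14.1%, 8.31% and 10.4% in the same order.

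Gpi1, which turns glucose 6-phosphate into fructose 6-phosphate (ENSMUSG00000036427, chromosome 7, 34201330 to 34230336), stood at 360.3, 410.1 and 700.0 CPM in p66High aggressive tumours, 317, 353 and 524 CPM in p66Low aggressive tumours, 224, 208 and 208 CPM in p66High parental ones and 417, 304 and 369.9 CPM in p66Low parental ones. Its p66High selection difference was 1.20 (SE 0.25, adjusted p = 0.0169), without overlap, and its parental difference of -0.77 (SE 0.25, adjusted p = 0.0826) did not pass.

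Of the 3 phosphofructokinases, which commit the sugar to glycolysis, Pfkl had the highest level per kb, 97.2 CPM, against 30.4 CPM for Pfkp and 26.7 CPM for Pfkm. Pfkl, the liver form (ENSMUSG00000020277, chromosome 10, 77986947 to 78010083), stood at 586, 721 and 842 CPM in p66High aggressive tumours, 587, 616 and 844 CPM in p66Low aggressive tumours, 384, 489.7 and 397 CPM in p66High parental ones and 805, 738 and 778 CPM in p66Low parental ones. The p66High parental tumours were the lowest of the 12, and the log2 difference was -0.87 (SE 0.17, adjusted p = 0.0084) between parental tumours and 0.76 (SE 0.17, adjusted p = 0.0219) in p66High selection. Pfkp, the platelet form (ENSMUSG00000021196, chromosome 13, 6579768 to 6648777), stood at 421, 553 and 644 CPM in p66High aggressive tumours, 238, 323 and 486 CPM in p66Low aggressive tumours, 238, 259 and 197 CPM in p66High parental ones and 587, 486 and 462 CPM in p66Low parental ones. It was -1.14 (SE 0.24, adjusted p = 0.0127) between parental tumours, while its level in p66Low aggressive replicate 1 was within the range of the p66High parental tumours. Pfkm, the muscle form (ENSMUSG00000033065, chromosome 15, 98092589 to 98132451), stood at 105, 92.6 and 114 CPM in p66High aggressive tumours, 67.8, 72.9 and 101 CPM in p66Low aggressive tumours, 76.5, 66.5 and 73.3 CPM in p66High parental ones and 110.4, 90.8 and 97.9 CPM in p66Low parental ones. Pfkm was called in the interaction alone, at 0.83 (SE 0.21, adjusted p = 0.025). Pfkm lies on chromosome 15, whose coding genes had a median interaction of 0.43, a median difference of -0.41 between p66High and p66Low parental tumours and -0.29 in p66Low selection.

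The Pfkfb genes encode the enzymes that make and remove fructose 2,6-bisphosphate, the strongest activator of phosphofructokinase. Pfkfb2 (ENSMUSG00000026409, chromosome 1, 130689182 to 130729253), the heart form, had the highest level per kb of the 4 and stood at 145, 146 and 142 CPM in p66High aggressive tumours, 105, 111 and 139.8 CPM in p66Low aggressive tumours, 178, 186 and 165 CPM in p66High parental ones and 110.1, 117 and 101 CPM in p66Low parental ones. It was the 1 member called higher in p66High parental tumours, by 0.69 (SE 0.11, adjusted p = 0.0031). Pfkfb2 lies on chromosome 1, whose coding genes had a median log2 difference of 0.49 in this comparison. Pfkfb3, the form with the most kinase activity, had group means of 41.9 ± 22.3 CPM, 61.8 ± 10.8 CPM, 19.8 ± 5.63 CPM and 38.9 ± 3.604 CPM in p66High aggressive, p66Low aggressive, p66High parental and p66Low parental tumours, and was called in no comparison. Pfkfb4 (ENSMUSG00000025648, chromosome 9, 108991778 to 109032228), which low oxygen is known to induce, stood at 2.56, 2.12 and 1.21 CPM in p66High aggressive tumours, 7.82, 9.18 and 7.74 CPM in p66Low aggressive tumours, 2.62, 2.92 and 2.22 CPM in p66High parental ones and 3.46, 3.65 and 3.38 CPM in p66Low parental ones. The p66Low aggressive tumours were the highest of the 12 and the p66High tumours the lowest. Pfkfb4 rose in p66Low selection by 1.24 (SE 0.24, adjusted p = 0.0066) and was lower in p66High aggressive than in p66Low aggressive tumours by -2.06 (SE 0.25, adjusted p = 0.000426); the first call ended without the 3 libraries with lymph node genes, at 1.14. In p66High aggressive tumours its lowest value, from 28 counts, was in replicate 3, the tumour with the highest hypoxia marker sum. The part of the hypoxia markers in the Pfkfb4 level was not tested. Pfkfb1, the liver and muscle form, stood at 1.396, 1.26 and 2.37 CPM in p66High aggressive tumours, 3.595, 2.69 and 2.88 CPM in p66Low aggressive tumours, 3.02, 2.15 and 2.35 CPM in p66High parental ones and 2.11, 2.03 and 1.92 CPM in p66Low parental ones. It was lower in p66High aggressive than in p66Low aggressive tumours by -0.87 (SE 0.27, adjusted p = 0.0392). As shares of the family per length, Pfkfb3 held 20.5%, 30.3%, 9.3% and 24.0% in p66High aggressive, p66Low aggressive, p66High parental and p66Low parental tumours, and Pfkfb2 held 76.3%, 60.5%, 86.6% and 70.3%.

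Aldolase splits the sugar into 2 triose phosphates. Aldoa, the muscle and general form, had the highest level per kb of all members, 381 CPM, and Aldoc, the brain form, 181 CPM. Aldoa stood at 819, 1354 and 1732 CPM in p66High aggressive tumours, 770.2, 958 and 1396 CPM in p66Low aggressive tumours, 746, 804 and 671 CPM in p66High parental ones and 1374, 1484 and 1185 CPM in p66Low parental ones. It passed in no comparison, with 0.81 (SE 0.26, adjusted p = 0.0907) in p66High selection. Aldoc (ENSMUSG00000017390, chromosome 11, 78322968 to 78327781) stood at 820.0, 728 and 724 CPM in p66High aggressive tumours, 406, 421 and 618 CPM in p66Low aggressive tumours, 397, 509 and 515 CPM in p66High parental ones and 665, 629 and 650.2 CPM in p66Low parental ones. The p66High aggressive tumours were the highest of the 12 for Aldoc, with log2 differences of 0.68 (SE 0.16, adjusted p = 0.0301) in p66High selection and 0.65 (SE 0.16, adjusted p = 0.0136) against p66Low aggressive tumours. Aldoc was highest in p66High aggressive replicate 1, the tumour of that group with the lowest hypoxia marker sum, and its p66High selection call ended whichever of the 6 tumours was left out (adjusted p up to 0.106). The call against p66Low aggressive tumours was lost without p66Low aggressive replicate 2 (adjusted p = 0.0639). The part of the hypoxia markers in the Aldoc level was not tested.

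Tpi1, triose phosphate isomerase (ENSMUSG00000023456, chromosome 6, 124810586 to 124814296), stood at 541, 716 and 947 CPM in p66High aggressive tumours, 510.1, 516 and 686 CPM in p66Low aggressive tumours, 352, 441 and 329.6 CPM in p66High parental ones and 732, 543 and 752 CPM in p66Low parental ones. The p66High parental tumours were the lowest of the 12, at -0.85 (SE 0.21, adjusted p = 0.03) against p66Low parental tumours, and the p66High selection difference was 0.97 (SE 0.21, adjusted p = 0.0211). Gapdh, which oxidises glyceraldehyde 3-phosphate (ENSMUSG00000057666, chromosome 6, 125161715 to 125166467), stood at 46.0, 58.0 and 115 CPM in p66High aggressive tumours, 33.97, 34.8 and 63.8 CPM in p66Low aggressive tumours, 17.1, 17.2 and 15.3 CPM in p66High parental ones and 46.3, 28.7 and 50.02 CPM in p66Low parental ones. It had the p66High selection difference with the smallest p of the members but Pdk3, 2.14 (SE 0.35, adjusted p = 0.00577), and -1.34 (SE 0.35, adjusted p = 0.0362) between parental tumours. Gapdh averaged 10.6 CPM per kb, Pgk1 41.2 and Pgam1 31.6, against 214 for Tpi1 and 346 for Pkm. Gapdh, Pgk1 and Pgam1 have many near-identical copies in the mouse genome, and how reads with several matches were counted is not given here, so that their levels are uncertain.

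Pgk1, phosphoglycerate kinase, the first step that yields ATP (ENSMUSG00000062070, chromosome X, 106187100 to 106203699), stood at 67.9, 116 and 179.8 CPM in p66High aggressive tumours, 77.8, 79.0 and 124 CPM in p66Low aggressive tumours, 39.8, 48.5 and 38.7 CPM in p66High parental ones and 124, 87.8 and 126 CPM in p66Low parental ones. Its log2 difference was -1.41 (SE 0.31, adjusted p = 0.0157) between parental tumours and 1.52 (SE 0.31, adjusted p = 0.0155) in p66High selection. Pgam1 stood at 49.9, 73.8 and 111 CPM in p66High aggressive tumours, 55.6, 55.8 and 88.8 CPM in p66Low aggressive tumours, 33.8, 39.9 and 34.2 CPM in p66High parental ones and 70.3, 58.0 and 79.2 CPM in p66Low parental ones. It was called in p66High selection, 1.12 (SE 0.27, adjusted p = 0.031). For both genes the p66High parental tumours were the lowest of the 12. Pgam2 had at most 0.0619 CPM in any tumour.

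Of the enolases, the neuronal Eno2 (ENSMUSG00000004267, chromosome 6, 124760053 to 124769673) stood at 8.81, 17.5 and 59.2 CPM in p66High aggressive tumours, 9.01, 10.4 and 21.1 CPM in p66Low aggressive tumours, 3.90, 4.78 and 2.91 CPM in p66High parental ones and 9.21, 8.32 and 12.4 CPM in p66Low parental ones. It had the largest p66High selection difference of the 33 members, 2.89 (SE 0.60, adjusted p = 0.0175), of which 1.76 (adjusted p = 0.0394) remained without p66High aggressive replicate 3. The 3 p66High aggressive tumours lay between 8.81 and 59.2 CPM, all above the p66High parental tumours. Eno3, the muscle form, lay between 2.40 and 7.28 CPM in the 12 tumours and was called in no comparison. Pkm, pyruvate kinase (ENSMUSG00000032294, chromosome 9, 59656368 to 59679375), stood at 1566, 1829 and 2625 CPM in p66High aggressive tumours, 1445, 1585 and 2214 CPM in p66Low aggressive tumours, 1093, 1333 and 1129 CPM in p66High parental ones and 2161, 1707 and 2102 CPM in p66Low parental ones. It was lower in p66High parental than in p66Low parental tumours by -0.75 (SE 0.21, adjusted p = 0.0496) and did not pass in p66High selection, at 0.76 (SE 0.21, adjusted p = 0.0554). Counts per gene do not separate the PKM1 and PKM2 products of Pkm.

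Lactate dehydrogenase is a tetramer of subunits A and B, and the A subunit favours lactate formation. Ldha (ENSMUSG00000063229, chromosome 7, 46841475 to 46855627) stood at 993, 1235 and 1422 CPM in p66High aggressive tumours, 1154, 1124 and 1495 CPM in p66Low aggressive tumours, 720.2, 651 and 704 CPM in p66High parental ones and 2086, 1437 and 1802 CPM in p66Low parental ones. The p66High parental tumours were the lowest of the 12 and the aggressive tumours of both lines overlapped each other. Ldha was -1.36 (SE 0.17, adjusted p = 0.0011) between parental tumours, the member with the smallest p there. It rose in p66High selection by 0.81 (SE 0.17, adjusted p = 0.0181) and had -0.50 (SE 0.17, adjusted p = 0.0687) in p66Low selection. Ldhb (ENSMUSG00000030246, chromosome 6, 142490249 to 142507957) stood at 95.5, 77.4 and 102 CPM in p66High aggressive tumours, 39.8, 31.8 and 43.5 CPM in p66Low aggressive tumours, 83.2, 86.9 and 92.9 CPM in p66High parental ones and 90.4, 97.5 and 90.2 CPM in p66Low parental ones. The p66Low aggressive tumours were the lowest of the 12, and the other 9 lay between 77.4 and 102 CPM. Ldhb fell in p66Low selection, with -1.27 (SE 0.13, adjusted p = 0.000229), and was higher in p66High aggressive than in p66Low aggressive tumours by 1.26 (SE 0.13, adjusted p = 0.000202). Its parental difference was -0.08 (SE 0.13, adjusted p = 0.747). Per length, Ldha made up 86.1% ± 2.7 of lactate dehydrogenase in p66High aggressive, 93.9% ± 0.6 in p66Low aggressive, 78.9% ± 1.3 in p66High parental and 89.9% ± 2.1 in p66Low parental tumours (SD, n = 3 each). The mean log2 ratio of Ldha to Ldhb was 2.65, 3.96, 1.90 and 3.17 in the same order. The selection difference of this ratio was 0.74 in p66High, where Ldha rose, and 0.79 in p66Low, where Ldhb fell.

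**Figure D4:**
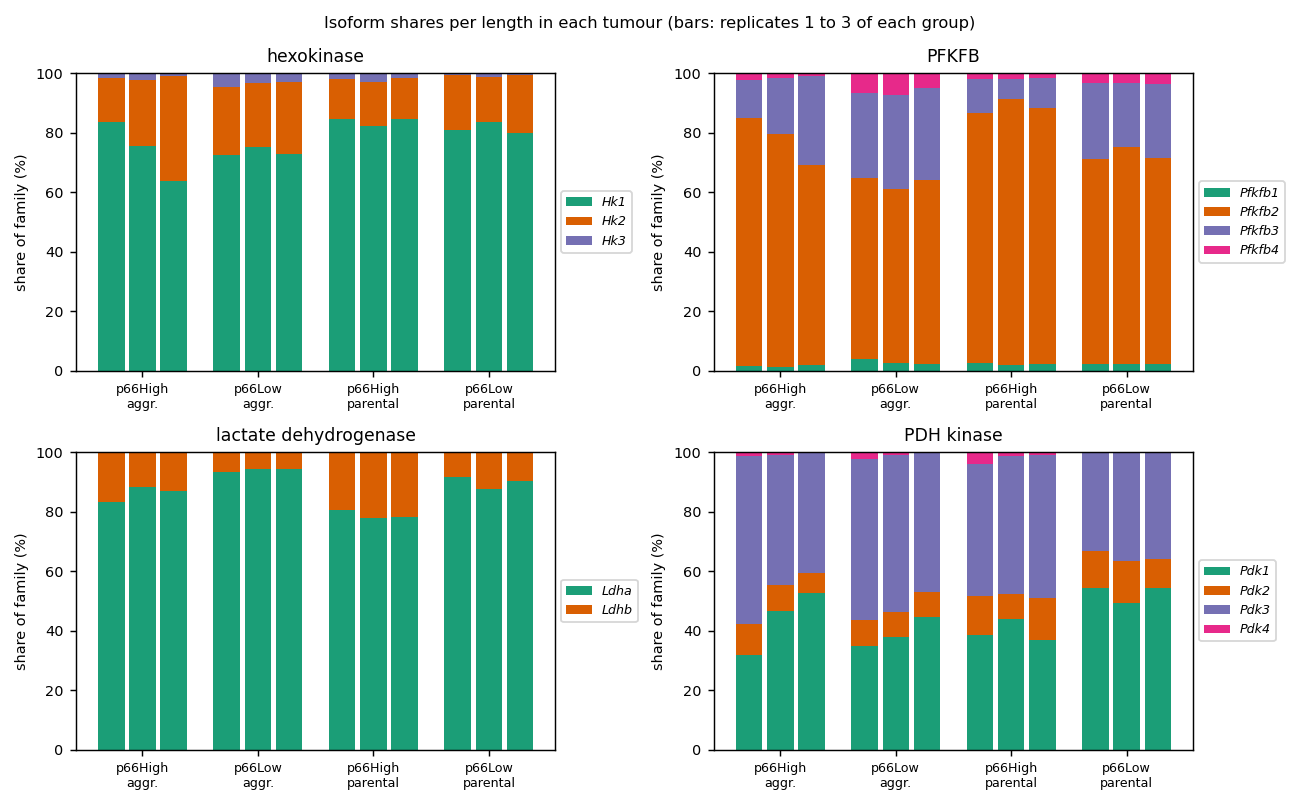
Share of each gene family held by each member (vertical axis, percent of the family's level per length), with 1 bar per tumour in replicate order within each group. The Ldhb share is smallest in the 3 p66Low aggressive bars and largest in the 3 p66High parental bars, and the Hk2 share varies most among the p66High aggressive bars.

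The ratios of 10 pairs of members were compared within each of the 4 comparisons, 40 exact two-sided permutation tests of 3 against 3 tumours, which cannot give a p below 0.1. The p was 0.1 in 21 of them, and no adjusted p was under 0.190. All 4 comparisons of Ldha over Ldhb and of Pfkfb3 over Pfkfb2 were among the 21. The log2 ratio of Hk2 to Hk1 differed by 0.85 in p66High selection (p = 0.2, exact permutation). The Hk2 share was 14.8%, 21.9% and 35.3% in the 3 p66High aggressive tumours.

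Pyruvate dehydrogenase is switched off by the kinases Pdk1 to Pdk4. Pdk3 (ENSMUSG00000035232, chromosome X, 93764607 to 93832201) stood at 52.2, 49.1 and 56.8 CPM in p66High aggressive tumours, 52.9, 55.9 and 61.4 CPM in p66Low aggressive tumours, 30.2, 31.2 and 30.7 CPM in p66High parental ones and 31.2, 29.5 and 34.6 CPM in p66Low parental ones. Every aggressive tumour lay above every parental tumour, and Pdk3 was the only one of the 33 members called in the selection of both lines. Its log2 difference was 0.78 (SE 0.09, adjusted p = 0.00101) in p66High and 0.84 (SE 0.09, adjusted p = 0.000361) in p66Low, called in each of the 6 fits without 1 tumour of either comparison and without the 3 libraries with lymph node genes. Neither line difference was called, at -0.05 (SE 0.09, adjusted p = 0.784) between parental and -0.11 (SE 0.09, adjusted p = 0.458) between aggressive tumours. Pdk1, a known target of hypoxia-inducible factors, had group means of 158 ± 67.7 CPM, 135 ± 38.5 CPM, 80.1 ± 9.26 CPM and 146 ± 21.8 CPM in p66High aggressive, p66Low aggressive, p66High parental and p66Low parental tumours, with 0.98 (SE 0.29, adjusted p = 0.0709) in p66High selection. Pdk2 lay between 6.97 and 14.9 CPM and Pdk4, which fasting is known to induce, between 0.173 and 3.56 CPM in the 12 tumours, and none of Pdk1, Pdk2 and Pdk4 was called in any comparison. Per length, Pdk3 held 46.9%, 51.1%, 46.4% and 34.9% of the 4 kinases in p66High aggressive, p66Low aggressive, p66High parental and p66Low parental tumours.

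The complex itself moved little. Pdha1 (ENSMUSG00000031299, chromosome X, 160122209 to 160138413), the alpha subunit that the kinases phosphorylate, had the highest level per kb of its 3 genes, 79.7 CPM. It stood at 287, 292 and 277 CPM in p66High aggressive tumours, 287, 271 and 317 CPM in p66Low aggressive tumours, 301, 316 and 294 CPM in p66High parental ones and 328, 301 and 302 CPM in p66Low parental ones. The highest and lowest of the 12 tumours differed 1.21-fold, the smallest range of any tested member. Pdhb, the beta subunit, lay between 68.1 and 106.7 CPM and was called in no comparison. Dlat, which carries the acetyl group (ENSMUSG00000000168, chromosome 9, 50634633 to 50659780), stood at 93.2, 92.4 and 99.1 CPM in p66High aggressive tumours, 80.2, 74.0 and 76.0 CPM in p66Low aggressive tumours, 96.9, 109 and 98.1 CPM in p66High parental ones and 103, 83.4 and 104 CPM in p66Low parental ones. It fell in p66Low selection with -0.33 (SE 0.10, adjusted p = 0.0345) and was higher in p66High aggressive than in p66Low aggressive tumours by 0.31 (SE 0.10, adjusted p = 0.0404). The first call was kept without p66Low parental replicate 2 alone and lost on leaving out any of the other 5 (adjusted p up to 0.169), and the second was lost in all 6 (adjusted p up to 0.173).

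Lactate leaves and enters cells through monocarboxylate transporters. Slc16a1, which encodes MCT1 and works in both directions, had the higher level per kb, 9.40 CPM against 1.22 CPM for Slc16a3. Slc16a1 stood at 44.2, 38.5 and 59.8 CPM in p66High aggressive tumours, 54.6, 51.6 and 29.9 CPM in p66Low aggressive tumours, 31.9, 33.4 and 37.0 CPM in p66High parental ones and 41.3, 22.1 and 55.0 CPM in p66Low parental ones. It was called in no comparison. Slc16a3, which encodes the exporter MCT4 (ENSMUSG00000025161, chromosome 11, 120948480 to 120960868), stood at 2.01, 15.2 and 10.7 CPM in p66High aggressive tumours, 8.65, 7.29 and 11.8 CPM in p66Low aggressive tumours, 1.80, 2.60 and 1.68 CPM in p66High parental ones and 3.81, 5.36 and 7.12 CPM in p66Low parental ones. Replicate 1 of the p66High aggressive tumours lay within the range of the p66High parental tumours, and replicate 2 was the highest of the 12. The p66High selection difference was 2.20 (SE 0.56, adjusted p = 0.0412), and was kept in the fit without p66High aggressive replicate 1 alone (log2 1.65 to 2.69 over the 6 fits, adjusted p up to 0.14).

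The members were not evenly high within a group. In p66High aggressive tumours, replicate 3 was the highest of its group for 22 of 33 members and replicate 1 the lowest for 17. In p66Low aggressive tumours, replicate 3 was the highest for 25 and replicate 1 the lowest for 19. In both groups these were also the tumours with the highest and the lowest hypoxia marker sum, 4748 and 1042 CPM in p66High aggressive and 2617 and 1207 CPM in p66Low aggressive tumours. In p66Low parental tumours replicate 2 was the lowest for 23 members and had the lowest sum, 1322 CPM against 1960 and 2066 CPM. The highest sum of that group was in replicate 3, whereas replicate 1 was the highest for the most members, 16. In p66High parental tumours replicate 2 was the highest for 17 members and had the lowest sum of its group, 669 CPM against 747 and 721 CPM. Other markers differed between the same tumours. In p66High aggressive replicate 3 the macrophage markers summed to 175 CPM, against 316 and 341 CPM in replicates 1 and 2, the adipocyte markers to 8.84 CPM, against 113 and 44.9 CPM, and the epithelial and tumour markers to 2839 CPM, against 2135 and 2170.4 CPM. In p66Low aggressive replicate 3 the neutrophil and monocyte markers summed to 247 CPM, against 512 and 623 CPM in replicates 1 and 2, the adipocyte markers to 31.2 CPM, against 324 and 188 CPM, the lymph node and B cell markers to 1.64 CPM, against 160 and 224 CPM, and the epithelial and tumour markers to 3070 CPM, against 2044 and 2374 CPM. Shc1 was also highest in p66High aggressive replicate 3. The part of the hypoxia markers, the cell markers and Shc1 in the members' spread was not tested.

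**Figure D5:**
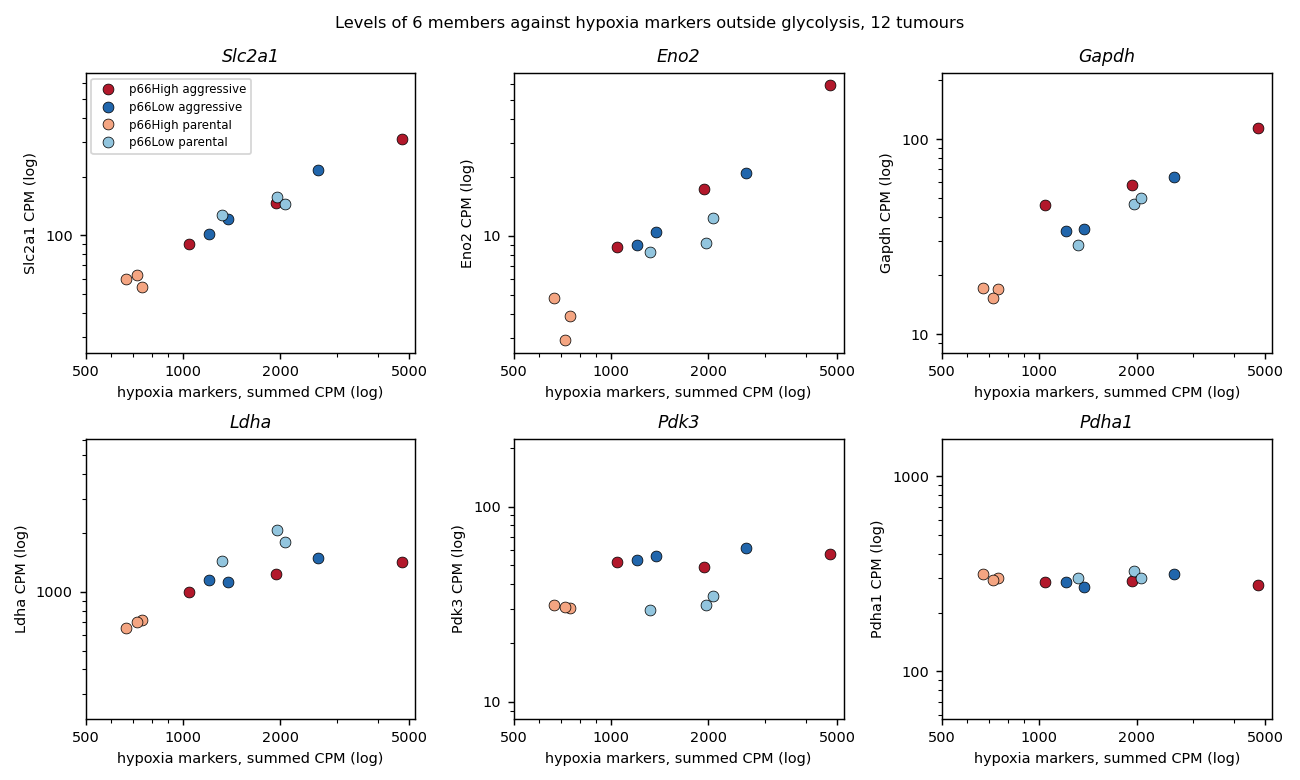
CPM of 6 members (vertical axes, log scale) against the summed CPM of 16 hypoxia markers outside glycolysis (horizontal axis, log scale) in the 12 tumours, coloured by group. The p66High parental points, from 669 to 747 on the horizontal axis, are the lowest for Slc2a1, Eno2, Gapdh and Ldha, while Pdk3 splits by selection and Pdha1 stays between 271 and 328 CPM.

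Of 25 further genes of glycolysis and pyruvate handling, 19 were tested. In the 4 comparisons 1 was higher and 2 lower between parental tumours, 2 higher and 1 lower in p66Low selection, 1 higher and 1 lower in p66High selection, and 1 higher and 1 lower between aggressive tumours. Of all genes tested, 8.08%, 16.6%, 5.94% and 21.0% were called in the same order. The medians of the 19 genes were 0.03, 0.01, -0.11 and -0.12 on the log2 scale. Called between p66High and p66Low parental tumours were Eno1 (log2 -1.88, SE 0.33, adjusted p = 0.0055), the main enolase, Bsg (-1.69, SE 0.36, adjusted p = 0.0148), the chaperone of the lactate transporters, and the mitochondrial pyruvate carrier gene Mpc2 (0.47, adjusted p = 0.0346). In p66High selection Eno1 rose by 1.31 (adjusted p = 0.0387) and Mpc1, the partner of Mpc2, was lower (-0.88, adjusted p = 0.0239). In p66Low selection the pyruvate dehydrogenase phosphatase gene Pdp1 rose (0.99, adjusted p = 0.00586), as did Slc2a12 (0.384 CPM in p66Low aggressive and 0.0353 CPM in p66Low parental tumours, adjusted p = 0.0466), and Ldhd fell (-0.71, adjusted p = 0.0317). Pdp1 was lower in p66High aggressive than in p66Low aggressive tumours (-0.85, adjusted p = 0.00893) and Mpc2 higher (0.55, adjusted p = 0.00816). Mpc2 lies on chromosome 1, whose coding genes had median log2 differences of 0.49 between parental and 0.36 between aggressive tumours. Eno1 shares sequence with the near-identical Gm5506, so that its counts are uncertain. Eno1 lies on chromosome 4, where 8.69% of coding genes were called lower between parental tumours, against 4.10% of all genes tested.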

How the data were processed

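Per the labels' protocols, stranded libraries were made from the total RNA of 12 bulk tumours after removal of ribosomal RNA. The authors deposited whole-number counts per gene that are not normalized, made with Trimmomatic 0.32, STAR 2.3.0e and featureCounts 1.4.4 on mm10, per the submitters' processing notes. Not given in the sources used here are the strand setting, the annotation and how reads with several matches were treated. Groups follow the sample titles.

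The analysis used edgeR 4.0.16 under R 4.3.3: filterByExpr left 19370 of 39017 genes, TMM scaled the libraries, and the quasi-likelihood F-test used the 12 tumours together as 4 groups (8 residual degrees of freedom), with Benjamini-Hochberg adjustment over all genes tested and a threshold of 0.05. The standard error (SE) is the absolute log2 difference over the square root of F. Levels are CPM; levels per kb and shares within a gene family use the exon length of GENCODE vM21, matched for all 34 members, and ratios are compared by exact permutation. No 2 tumours of a group agreed within sampling noise (lowest chi-square per degree of freedom 20.6). Floors cover counting error only. Promoter sequences are RefSeq's. The fit was tested on simulated counts for the comparison of parental tumours. It recovered 97% of 4-fold, 56.7% of 2-fold and 11.9% of 1.5-fold changes, and 5 of its 115 calls were false. A member that was not called may therefore still differ.

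Alternatives were other scalings, no filter or a mean of at least 1 CPM, DESeq2 1.42.0, limma-voom (limma 3.58.1), a robust fit, only the 6 tumours compared, summed tumours whose titles share a number, leaving out the 3 libraries rich in lymph node genes, and leaving out each tumour in turn. All 34 members were accounted for; values in every tumour were given for members called in at least 1 comparison and for the member of each step with the highest level per length, and of each companion list up to 4 called genes with the smallest p in each comparison were named. The members, lists and tests were chosen with earlier results of these data known.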

Additional observations from a re-analysis of the deposited data

Results flagged for a closer look

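For 12 members the selection difference (aggressive minus parental) differed between the p66High and the p66Low line by the interaction test over all 19370 genes. It was higher in p66High by 2.05 for Gapdh, 1.78 for Pgk1, 1.77 for Pfkp, 1.34 for Ldhb, 1.31 for Ldha, 1.22 for Tpi1, 1.10 for Aldoc, 0.939 for Pfkl, 0.829 for Pfkm and 0.817 for Hk1 on the log2 scale. For Pfkfb4 it was -1.62 and for Hk3 -1.56, so that both were higher in p66Low selection than in p66High selection. Adjusted p-values ran from 0.00239 for Ldhb to 0.0435 for Hk1. For Ldhb the selection difference was 0.06 (SE 0.13, adjusted p = 0.806) in p66High and -1.27 (SE 0.13, adjusted p = 0.000229) in p66Low. The interaction is made of the same tumours as the pairwise comparisons and gives no separate support to them.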

How the results depend on the processing

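Of 47 calls of members over the 5 comparisons, 12 were kept under every alternative, 35 were lost under at least 1, and none changed sign under those run. The share of all genes tested that was called is given in brackets. Between p66High and p66Low parental tumours the number of members called was 9 (8.08%). It was 18 with DESeq2 (13.2%), 19 in a fit of the 6 tumours compared (8.39%) and 4 to 11 without 1 tumour (4.36% to 9.65%). In p66Low selection it was 6 (16.6%), and 4 to 9 without 1 tumour (7.73% to 17.5%). In p66High selection it was 14 (5.94%), and 9 with limma-voom (5.08%). It was 3 with tumours whose titles share a number summed (1.48%) and 2 to 17 without 1 tumour (2.29% to 3.78%). Between aggressive tumours it was 6 (21.0%), and 3 to 9 without 1 tumour (12.3% to 22.5%). For the interaction it was 12 (12.4%), and 21 with DESeq2 (18.2%) and 6 to 20 without 1 tumour (5.9% to 16.4%). With library size alone 11 were positive and 4 negative in the interaction. Leaving out the 3 libraries with lymph node genes left 1 p66Low aggressive tumour, on which the comparisons with that group then rest. The cause of these changes was not tested, though fits without tumours have fewer samples. Scaling by library size alone moved the median of all genes by 0.11 in p66Low selection and by -0.11 in the interaction. No paired analysis was possible because replicate numbers follow the order of deposition and pair no tumours across groups. The 12 counts of Pgam2 over all tumours allow no comparison.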

Other observations

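Of 10 pentose phosphate genes, 2 were called between p66High and p66Low parental tumours (8.08% of all genes tested were), 1 in p66Low selection (16.6% of all genes), 1 in p66High selection (5.94% of all genes) and 4 between aggressive tumours (21.0% of all genes). Pgd, the second dehydrogenase of the oxidative branch, was lower with p66High than with p66Low in both states, with log2 differences of -1.44 (SE 0.21, adjusted p = 0.00223) between parental and -0.98 (SE 0.21, adjusted p = 0.00762) between aggressive tumours. Pgd averaged 56.6 CPM in p66High parental tumours against 154 CPM in p66Low parental ones. In p66High aggressive tumours it averaged 58.6 CPM, against 115 CPM in p66Low aggressive ones. Pgd lies on chromosome 4, where 8.69% of coding genes were called lower between parental and 15% between aggressive tumours. Of all genes tested, 4.10% and 12.1% were called lower in the same order. Rpe was higher in the same comparisons (0.56, adjusted p = 0.00482, and 0.69, adjusted p = 0.000899), and lies with other genes of chromosome 1, whose coding genes had medians of 0.49 and 0.36. H6pd, the glucose 6-phosphate dehydrogenase of the endoplasmic reticulum, rose in the selection of both lines, by 0.89 (adjusted p = 0.0407) in p66High and 1.44 (adjusted p = 0.00254) in p66Low. It was lower in p66High aggressive than in p66Low aggressive tumours (-0.87, adjusted p = 0.0178), as was Rpia (-0.48, adjusted p = 0.0374).

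Of 14 genes of gluconeogenesis and glycogen, 2 were called between parental tumours, 2 in p66Low selection, 3 in p66High selection and 2 between aggressive tumours. In the same order, 8.08%, 16.6%, 5.94% and 21.0% of all genes tested were called. The glycogen synthase gene Gys1 rose in p66High selection (1.42, adjusted p = 0.0401), as did the phosphoglucomutase gene Pgm2 (1.32, adjusted p = 0.0159), which was lower in p66High parental than in p66Low parental tumours (-1.08, adjusted p = 0.03). Pck2, the mitochondrial phosphoenolpyruvate carboxykinase, was lower after selection in both lines, with -0.57 (adjusted p = 0.0154) in p66High and -0.42 (adjusted p = 0.0291) in p66Low. Gbe1, the glycogen branching enzyme, was higher in p66High aggressive than in p66Low aggressive tumours (1.28, adjusted p = 0.0131). Fbp1 was higher in p66High parental tumours (1.47, adjusted p = 0.0385, 3.74 CPM in p66High parental tumours against 1.37 CPM in p66Low parental tumours) and Fbp2 rose in p66Low selection (1.45, adjusted p = 0.0231, 2.19 CPM in p66Low aggressive tumours against 0.810 CPM in p66Low parental tumours). Fbp2 was lower in p66High aggressive than in p66Low aggressive tumours (-2.40, adjusted p = 0.0021, with 0.417 CPM in p66High aggressive and 2.19 CPM in p66Low aggressive tumours). The interaction was positive for Pgm2 (1.41, adjusted p = 0.0327) and negative for Fbp2 (-2.55, adjusted p = 0.0151).

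Of 17 citrate cycle genes, 5 were higher in p66High aggressive than in p66Low aggressive tumours, where 8.92% of all genes tested were, and 2 were higher in p66High parental than in p66Low parental tumours, where 3.98% were. Those with the smallest p between aggressive tumours were Sdhc (0.77, adjusted p = 0.000257), Fh1 (0.69, adjusted p = 0.00133), Sdha (0.25, adjusted p = 0.0295) and Idh3b (0.24, adjusted p = 0.0303). Between parental tumours they were Sdhc (0.54, adjusted p = 0.00275) and Fh1 (0.41, adjusted p = 0.0329), both on chromosome 1. In p66Low selection Sdha was lower (-0.36, adjusted p = 0.00725).

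Further calls among the 16 hypoxia markers were Mxi1, lower in p66Low selection (-0.87, adjusted p = 0.0162), and Mxi1 (1.34, adjusted p = 0.0015) and Adm (1.59, adjusted p = 0.0397), both higher in p66High aggressive than in p66Low aggressive tumours. The interaction was positive for Mxi1 (1.63, adjusted p = 0.00815), Car9 (2.84, adjusted p = 0.0131), Ankrd37 (2.39, adjusted p = 0.026) and Ddit4 (2.14, adjusted p = 0.0282). Among the further genes of glycolysis and pyruvate handling it was positive for Bsg (1.83, adjusted p = 0.037) and negative for Pdp1 (-1.33, adjusted p = 0.0115), Slc2a12 (adjusted p = 0.0374) and Slc2a4 (-2.47, adjusted p = 0.0475).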
